A study of Mus musculus with 34 samples.

Results

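The FGF-ERK feedback target genes are genes that FGF receptor signalling switches on through ERK and whose products feed back on the pathway or carry its output. They were taken as a read-out of FGF signalling in limb buds that had lost *Hnrnpk*. The 10 members were listed by name (*Spry1*, *Spry2*, *Spry4*, *Spred1*, *Spred2*, *Il17rd*, *Dusp6*, *Etv1*, *Etv4* and *Etv5*) and found by gene symbol among the 22040 genes of the mRNA-seq table. Each symbol matched a single row, and the rule used no measured value, although the list was drawn up with earlier results of these data known.

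In the limb bud, FGFs from the apical ectodermal ridge and from the mesenchyme bind FGF receptors on neighbouring cells and activate RAS, RAF, MEK and ERK. Active ERK induces ETS transcription factors of the PEA3 group, and it also induces inhibitors that act at the receptor, at RAS and RAF, and at ERK itself. The amounts of these transcripts are therefore commonly read as a sign of how much FGF signal the mesenchyme receives.

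The libraries came from E11.5 mouse limb buds of 2 genotypes, with 3 WT libraries (*Hnrnpk* WT) and 3 CKO libraries, and both groups were otherwise untreated. In CKO embryos both *Hnrnpk* alleles carried loxP sites, and Prrx1-Cre, which is active in limb mesenchyme and not in the ectoderm of the ridge, removed the exons between them. Deletion is known to be less complete in the hindlimb with this Cre, the labels do not separate forelimbs from hindlimbs, and they do not say whether libraries with different numbers came from separate litters. FPKM are fragments per unit of gene length and of a library size, so they can be compared between genes. The library size was not the plain depth, since CKO replicates 2 and 3 were divided by 19146572 and 23848036 although 21190287 and 24624433 reads fell on listed genes, and in the other libraries the divisor exceeded those reads.

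*Hnrnpk* itself stood at 193, 195 and 185 FPKM in WT and at 127, 142 and 135 FPKM in CKO, 29.4% lower (log2 fold change -0.50, SE 0.13, adjusted *p* = 0.334; 0.0575 with the replicate number as a block). All CKO libraries lay below all WT libraries, and the gene was read along its whole length, not at the deleted exons alone. The 8 limb mesenchyme markers, such as *Prrx1* and *Twist1*, were detected in every library. The reads on listed genes numbered from 17140868 to 24624433 per library. Globin genes took from 11.7% to 32.4% of the summed FPKM, with the lowest share in CKO replicate 1 and the highest in CKO replicate 2. Replicate 1 of both groups stood apart from the other libraries over all genes tested, at -32.1 (WT) and -30.4 (CKO) on the first principal component (52.6% of the variance), against 6.09 to 27.7 for the rest.

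The members are spread over the mouse genome (GRCm38), and their sequences upstream are shown for 3 of them because a PEA3-type ETS factor binds DNA around a GGAA core. *Dusp6* (ENSMUSG00000019960) lies at chr10:99263231-99267489 on the plus strand, *Spry1* (ENSMUSG00000037211) at chr3:37639947-37644598 on the plus strand, and *Spry2* (ENSMUSG00000022114) at chr14:105891947-105896819 on the minus strand. The 250 bases before the annotated start of each, from RefSeq on GRCm38.p6, read 5′ to 3′ on the strand of the gene, with any match to the letters CGGAAG or their reverse complement CTTCCG in capitals. These letters are narrower than the core, and GGAA outside them, which all 3 windows hold, was left in lower case.
Dusp6, chr10:99262981-99263230: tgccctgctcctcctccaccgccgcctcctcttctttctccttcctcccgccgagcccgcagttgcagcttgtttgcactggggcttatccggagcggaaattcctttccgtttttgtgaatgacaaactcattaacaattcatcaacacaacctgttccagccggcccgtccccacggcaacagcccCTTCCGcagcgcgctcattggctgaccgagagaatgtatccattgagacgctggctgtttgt
Spry1, chr3:37639697-37639946: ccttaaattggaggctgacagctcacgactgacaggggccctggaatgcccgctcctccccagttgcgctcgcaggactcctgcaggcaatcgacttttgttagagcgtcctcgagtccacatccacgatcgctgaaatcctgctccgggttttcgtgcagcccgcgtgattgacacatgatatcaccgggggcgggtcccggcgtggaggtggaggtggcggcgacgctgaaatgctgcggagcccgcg
Spry2, chr14:105896820-105897069: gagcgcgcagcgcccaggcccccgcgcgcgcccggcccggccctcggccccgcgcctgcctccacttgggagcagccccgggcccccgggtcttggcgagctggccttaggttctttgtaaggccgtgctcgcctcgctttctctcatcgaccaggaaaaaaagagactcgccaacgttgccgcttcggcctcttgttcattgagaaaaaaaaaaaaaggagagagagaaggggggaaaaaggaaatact

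RefSeq windows were at hand for 8 members, with 10 windows in all because *Etv1* and *Etv5* have 2 starts each, and *Spry4* and *Etv4* had none. The letters CGGAAG or CTTCCG stood in the windows of 3 members, at position -62 from the start in *Dusp6*, -17 in *Spred1* and -43 in *Spred2*, and in 13.59% of the 32851 promoter windows of this length. The GGAA core alone was not counted. The letters CCCTCCC, a run of the cytosine-rich kind that hnRNPK protein binds, were searched on both strands and stood in the windows of *Spred2* and of the other start of *Etv5*, against 19.69% of all windows. These matches are a description of the letters and not of binding.

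Most members were higher on average in CKO limb buds, by small amounts, and no member passed the adjusted threshold when the groups were compared without pairing. Of the 10 members, 8 were on average higher in CKO and 2 were lower, where 50.9% and 49.1% of all genes were, and the largest difference was that of *Spry4* (1.48-fold). The median log2 fold change was 0.15 over the members and 0.0048 over the 12305 genes tested. Single libraries moved both values. The median was 0.026 with 5 members higher without CKO replicate 1, 0.052 with 6 higher without WT replicate 2, 0.37 with 8 higher without WT replicate 1, and 0.31 with 9 higher without CKO replicate 2. With both libraries of a number left out it was 0.17, 0.15 and 0.15 for numbers 1, 2 and 3. Many members rose and fell together over the 6 libraries, so counts of members are not counts of separate observations. The log2 values of *Spry4* and *Etv5* correlated at 0.98, while those of *Spry2* and *Dusp6* correlated at 0.05 and *Etv1* ran against all other members. With limma across all genes, 0 of 10 members had an adjusted *p* value under 0.05, where 0.0569% of all genes were called higher and 0.00813% lower. At an unadjusted *p* value under 0.05, 1 member (*Spry4*) was higher and 0 were lower, beside 2.84% and 5.46% of all genes. When the replicate number was entered as a block, 1 member (*Spry4*) was called higher at the adjusted threshold, against 1.13% of all genes, and 0 were called lower, against 1.68%. At an unadjusted *p* value under 0.05 in that fit, 4 members (*Spry4*, *Dusp6*, *Etv4* and *Etv5*) were higher and 0 were lower, against 8.14% and 10.2% of all genes. The blocked counts rest on a pairing by number that the labels do not state. All 10 members passed the minimum level of 0.5 FPKM on average, and none reached the study's fold change of 2 or 0.5 at that *p* value in the unpaired fit, as 0.423% and 0.244% of all genes did. In whole limb buds, a difference in the number of cells of a type cannot be told apart from a difference in RNA per cell.

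**Figure D1:**
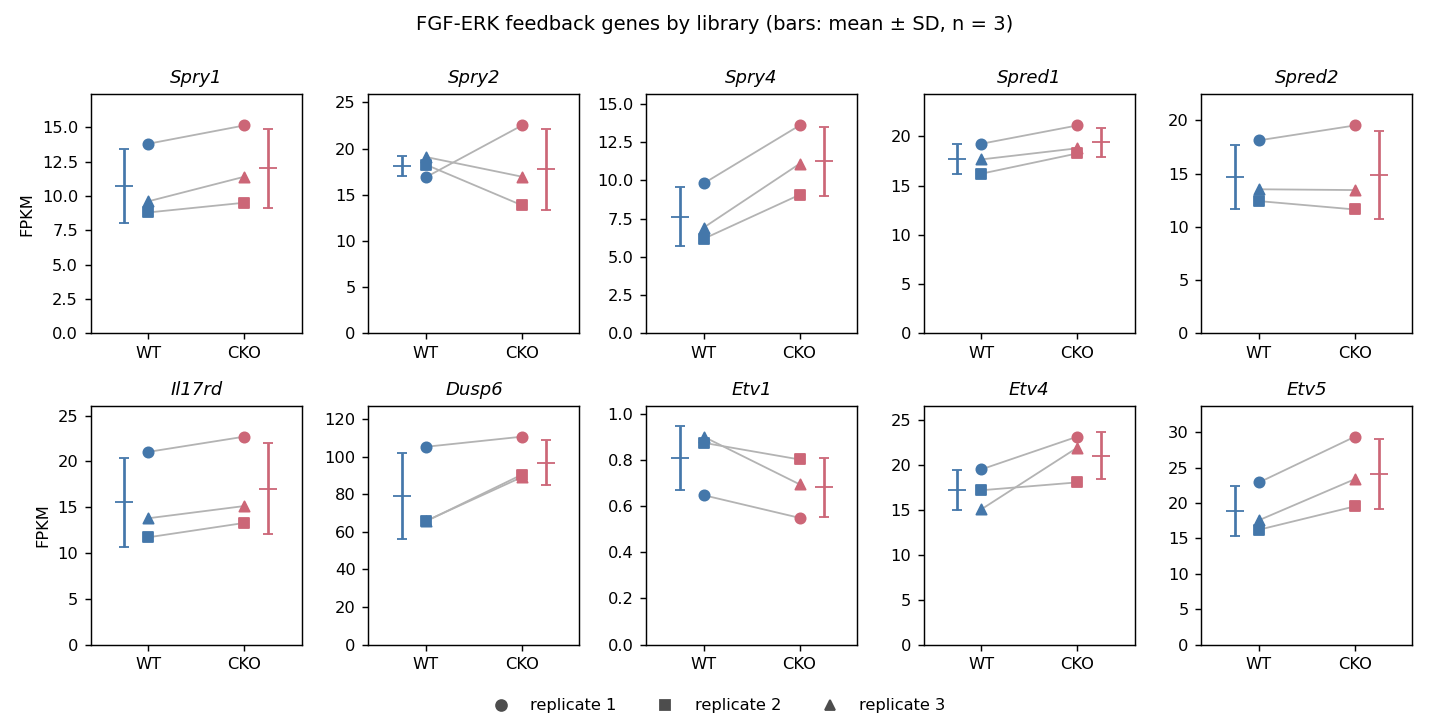
FPKM (linear axis from 0) of the 10 FGF-ERK feedback genes in each of the 3 WT (blue) and 3 CKO (red) libraries, with grey lines joining libraries of the same replicate number and bars giving the mean ± SD of each group. *Spry4* was higher in CKO along all 3 lines, and in 8 genes the circle of replicate 1 was the highest point of both groups.

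The Sprouty proteins are inhibitors that FGF signalling induces and that act between the receptor and RAS or RAF. *Spry4* stood at 9.80, 6.18 and 6.91 FPKM in WT replicates 1, 2 and 3 (mean 7.63 ± 1.91, SD, n = 3). In CKO it stood at 13.6, 9.05 and 11.1 FPKM (11.2 ± 2.27, SD, n = 3). WT replicate 1 lay above CKO replicate 2, so the groups overlapped, while each CKO library exceeded the WT library of its own number. The log2 fold change was 0.56 (SE 0.21, 95% confidence interval 0.07 to 1.06), 47.6% higher in CKO, with an adjusted *p* value of 0.552. With the replicate number as a block the SE was 0.11, the interval was 0.33 to 0.79 and the adjusted *p* value was 0.0167. An exact two-sided permutation test over the libraries gave *p* = 0.2, where the smallest value that 3 libraries against 3 allow is 0.1. The blocked call was lost when replicate 2 of both groups (adjusted *p* = 0.0692) or replicate 3 of both groups (0.162) was left out, or when FPKM were scaled without the globin genes (0.0511).

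*Spry1*, the family member best known from kidney development, stood at 13.8, 8.80 and 9.61 FPKM in WT and at 15.1, 9.51 and 11.4 FPKM in CKO. The groups overlapped almost fully, with replicate 1 the highest in each. The log2 fold change was 0.16 (SE 0.22, adjusted *p* = 0.891), and 0.423 with the block. Its exons share 710 bases with *Gm42922* on the opposite strand, and whether the counting used strand is not given in the sources used here. *Spry2*, which restrains FGF signals in many epithelia and in the limb, stood at 16.9, 18.3 and 19.1 FPKM in WT and at 22.5, 13.9 and 17.0 FPKM in CKO. CKO replicate 1 was the highest library and CKO replicate 2 the lowest, and WT lay between them. Its log2 fold change of -0.05 (SE 0.18, adjusted *p* = 0.963) had a 95% confidence interval from -0.47 to 0.37, which leaves room for differences of either sign.

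The Spred proteins are relatives of the Sproutys that bring neurofibromin to the membrane to turn RAS off. *Spred1* stood at 19.2, 16.2 and 17.7 FPKM in WT and at 21.1, 18.3 and 18.8 FPKM in CKO. It had the smallest SE of the members, and its CKO values exceeded their WT counterparts by little (log2 fold change 0.13, SE 0.12, adjusted *p* = 0.838; 0.516 with the block). *Spred2* stood at 18.1, 12.4 and 13.5 FPKM in WT and at 19.5, 11.6 and 13.4 FPKM in CKO. The values of the groups were nearly the same number by number, with a log2 fold change of 0.0017 (SE 0.22, adjusted *p* = 0.998). With the block, the interval for *Spred2* was -0.22 to 0.23.

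*Il17rd*, also known as Sef, is a transmembrane inhibitor of FGF receptor and ERK signalling. It stood at 21.0, 11.7 and 13.8 FPKM in WT and at 22.7, 13.3 and 15.1 FPKM in CKO. Replicate 1 was far above the other libraries in both groups, and CKO exceeded WT slightly at every number. Its log2 fold change was 0.14 (SE 0.27, adjusted *p* = 0.922; 0.482 with the block), and *Il17rd* had the largest SE of the members in the fit without the block.

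*Dusp6*, also called MKP3, encodes the phosphatase that takes the phosphates off ERK in the cytoplasm, and it was by far the most abundant member. It stood at 105, 65.6 and 65.8 FPKM in WT (78.9 ± 22.9, SD, n = 3) and at 111, 90.4 and 89.1 FPKM in CKO (96.7 ± 12.1, SD, n = 3). Replicates 2 and 3 of WT lay below all CKO libraries, while WT replicate 1 lay among them. On the log2 scale CKO was higher by 0.32 (SE 0.21, adjusted *p* = 0.751). With the block the interval was 0.05 to 0.59 and the adjusted *p* value was 0.188. Without replicate 1 of both groups, the blocked fit gave a log2 fold change of 0.45 and an adjusted *p* value of 0.00218, in a fit that called 9.72% of all genes higher and 8.81% lower. Without replicate 2 or 3 of both groups, it gave 0.25 (adjusted *p* = 0.617) and 0.27 (adjusted *p* = 0.806).

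The PEA3 group of ETS factors, *Etv1*, *Etv4* and *Etv5*, carries FGF signals into transcription, and *Etv4* and *Etv5* are known in the limb for restricting *Shh* to the posterior mesenchyme. *Etv5* stood at 22.9, 16.2 and 17.6 FPKM in WT (18.9 ± 3.53, SD, n = 3) and at 29.4, 19.5 and 23.4 FPKM in CKO (24.1 ± 4.96, SD, n = 3). Each CKO library exceeded its WT counterpart, although WT replicate 1 exceeded CKO replicate 2. The log2 fold change was 0.34 (SE 0.19, adjusted *p* = 0.703; 0.0921 with the block). Without replicate 1 of both groups, the blocked fit gave 0.34 with an adjusted *p* value of 0.0388. That fit called 9.72% of all genes higher and 8.81% lower, and it rests on the pairing of numbers 2 and 3 alone. The blocked fit gave 0.38 (adjusted *p* = 0.211) without replicate 2 of both groups and 0.31 (adjusted *p* = 0.614) without replicate 3.

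*Etv4* stood at 19.5, 17.2 and 15.0 FPKM in WT (17.2 ± 2.22, SD, n = 3) and at 23.1, 18.04 and 21.9 FPKM in CKO (21.0 ± 2.65, SD, n = 3). The groups overlapped only in that WT replicate 1 exceeded CKO replicate 2. The log2 fold change was 0.29 (SE 0.15, adjusted *p* = 0.680; 0.205 with the block). *Etv1* was the exception among the factors, low in every library at 0.647, 0.874 and 0.900 FPKM in WT and 0.549, 0.801 and 0.694 FPKM in CKO. Its CKO value was below the WT value at every number, and its replicate 1 was the lowest of each group. The log2 fold change was -0.22 (SE 0.23, adjusted *p* = 0.863; 0.627 with the block), and only 132 to 278 reads per library stood behind it, against 4492 to 6656 for *Dusp6*.

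**Figure D2:**
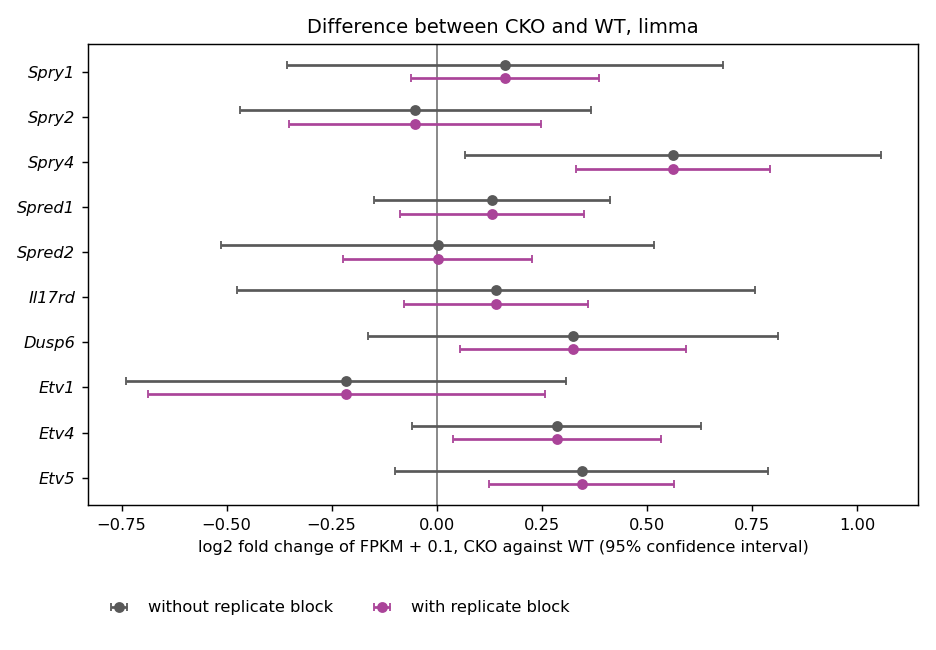
Log2 fold change of FPKM + 0.1 between CKO and WT (horizontal axis) for each gene, as points with 95% confidence intervals from limma without (grey) and with (purple) the replicate number as a block. With the block the intervals of *Spry4*, *Dusp6*, *Etv4* and *Etv5* lie above 0, and without it that of *Spry4* alone does.

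Set side by side by replicate number, the members' median lay above 0 in each pair of libraries. The median CKO minus WT difference over the members was 0.13 for replicate 1, 0.14 for replicate 2 and 0.19 for replicate 3 on the log2 scale, where the medians of all genes were -0.01, 0.0014 and 0.0014. In 7 members (*Spry1*, *Spry4*, *Spred1*, *Il17rd*, *Dusp6*, *Etv4* and *Etv5*) CKO was above WT at all 3 numbers, against 18.2% of all genes. In 1 member (*Etv1*) CKO was below WT at all 3 numbers, against 21.3% of all genes. The labels do not say what libraries of a number share. For numbers 2 and 3, deviations from the group means correlated slightly more between crossed pairs, at 0.49 and 0.31 against 0.44 and 0.27. In *Spry1* and *Il17rd* WT replicate 3 exceeded CKO replicate 2, so they would not count as higher throughout with numbers 2 and 3 crossed. In all 7 members that were higher at every number, WT replicate 1 exceeded CKO replicate 2, so each of those counts depends on the pairing. The differences of *Spry4* were 0.47, 0.54 and 0.67 and those of *Etv5* were 0.36, 0.27 and 0.41, so both were similar in size at each number. *Dusp6* differed by 0.07 at replicate 1 and by 0.46 and 0.44 at replicates 2 and 3, and *Etv4* by 0.25, 0.07 and 0.54. *Spry2* changed sign between numbers, with 0.41, -0.39 and -0.17. In no member did all 3 CKO values lie on one side of all 3 WT values, as they did above WT in 5.63% and below WT in 8.86% of all genes.

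**Figure D3:**
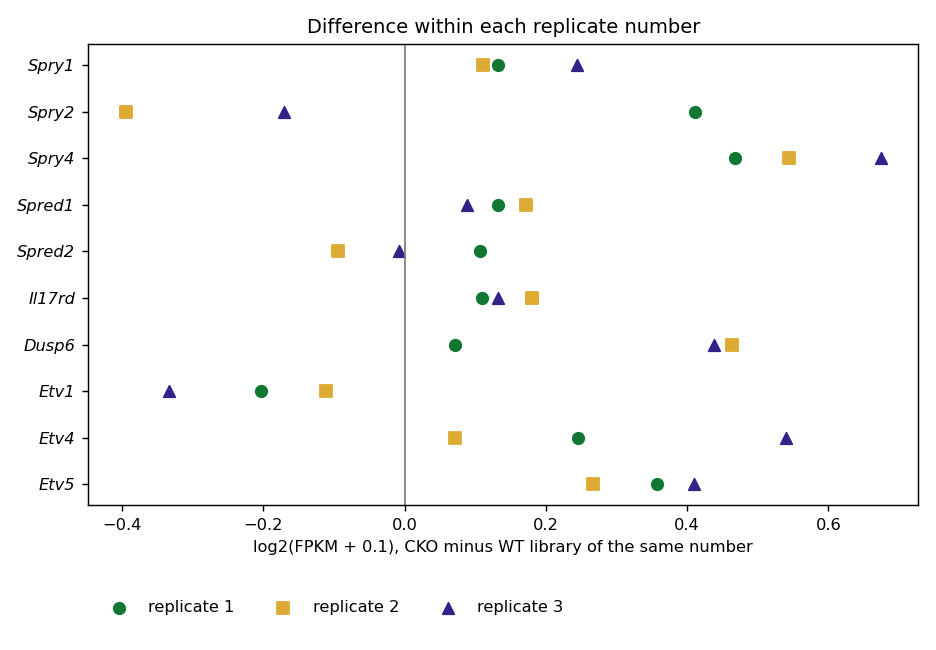
Difference in log2(FPKM + 0.1) between the CKO and the WT library of the same replicate number (horizontal axis) for each gene, with 1 symbol per number. All 3 symbols lie right of 0 in 7 genes and left of 0 in *Etv1*, and those of *Spry2* lie on both sides.

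The separation of replicate 1 was also seen in the feedback genes. In 8 of 10 members replicate 1 was the highest library of both groups, against 29.3% of all genes. Replicate 1 exceeded the mean of replicates 2 and 3 by a median of 0.46 in WT and 0.45 in CKO on the log2 scale, while the medians of all genes were -0.02 and -0.01. The largest such gaps were those of *Il17rd*, 0.72 in WT and 0.68 in CKO. *Spred1* had small gaps of 0.19 in both groups, and *Etv1* had gaps of the opposite sign, -0.40 and -0.38. For *Spry2* the gap was -0.14 in WT and 0.55 in CKO, a contrast that was not tested. In 9 members the gap of WT replicate 1 was larger than the log2 fold change between genotypes, and in 7 members that of CKO replicate 1 was. Such gaps were not particular to the members. Some genes in the lists of immediate-early genes and other MAP kinase phosphatases, described below, had larger ones. They were 1.23 in WT and 1.32 in CKO for *Jun*, 1.05 and 1.02 for *Nr4a1*, and 1.67 and 1.02 for *Dusp5*. Other genes of these lists had gaps below 0, such as *Ier5* (-0.26 and -0.03) and *Dusp10* (-0.07 and -0.69). The libraries of replicate 1 also held the lowest summed FPKM of the 12 ectoderm and ridge markers (55.5 in WT and 61.4 in CKO, against 76.4 to 93.9 in the other libraries) and of the 9 red cell markers (30832 to 37788, against 63274 to 142935). Most of the gap in the first list lay in the keratins *Krt5* (6.54 in WT and 12.1 in CKO, against 18.5 to 22.8) and *Krt14* (2.08 and 4.05, against 11.8 to 13.9). The ridge genes *Fgf8* and *Sp8* of that list went the other way and were highest in replicate 1 of both groups. The part of these in the members' levels was not tested.

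**Figure D4:**
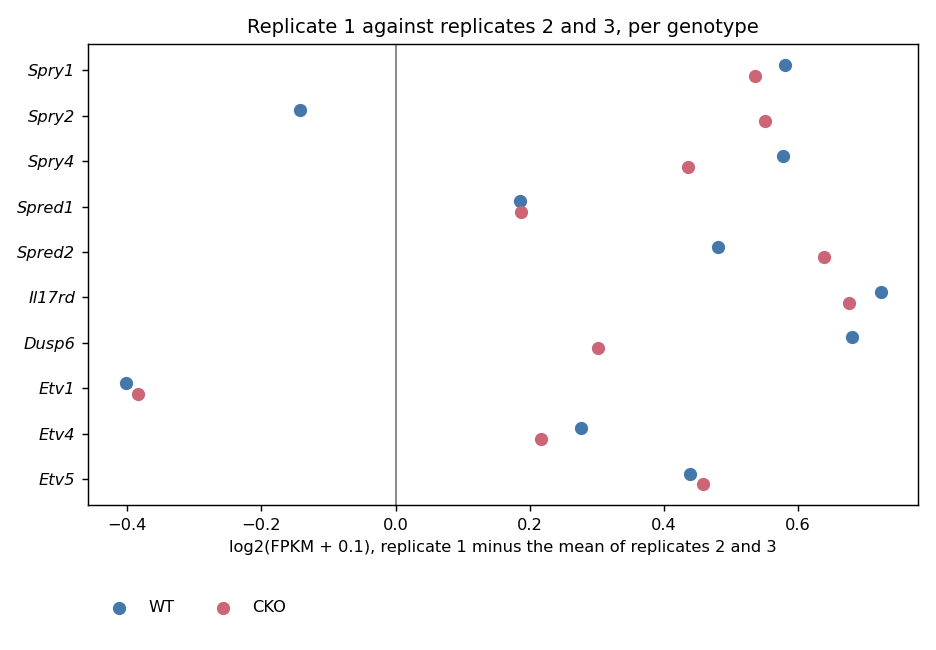
Difference in log2(FPKM + 0.1) between replicate 1 and the mean of replicates 2 and 3 of the same genotype (horizontal axis) for each gene, in WT (blue) and CKO (red). Both points lie right of 0 for 8 genes, between 0.19 and 0.72, and left of 0 for *Etv1*.

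Ordered by mean FPKM over the 6 libraries, the members ran from *Dusp6* (87.8 ± 19.0, SD, n = 6) through *Etv5* (21.5 ± 4.79), *Etv4* (19.1 ± 3.02), *Spred1* (18.5 ± 1.64), *Spry2* (17.9 ± 2.86), *Il17rd* (16.3 ± 4.50), *Spred2* (14.8 ± 3.24), *Spry1* (11.4 ± 2.58) and *Spry4* (9.43 ± 2.73) to *Etv1* (0.744 ± 0.138). Only the ends of this order stood clear of their neighbours, since the ranges of *Dusp6* and *Etv5* and those of *Spry4* and *Etv1* did not overlap. All the neighbours in between had overlapping ranges, although *Spred2* exceeded *Spry1* and *Spry1* exceeded *Spry4* in all 6 libraries.

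The rest of the pathway was read from 6 lists of genes, in which no gene passed the adjusted threshold in the fit without or with the block. Without it, 1 gene (*Spred3*) was higher and 2 (*Fgfr2* and *Flrt2*) were lower at an unadjusted *p* value under 0.05, against 2.84% and 5.46% of all genes. With the block, 1 ligand, 1 immediate-early gene and 2 paralogs of the members were higher at that *p* value, against 8.14% of all genes. Lower were 1 ligand, 2 receptors or co-receptors, 1 gene of the RAS-ERK cascade and 4 immediate-early genes, against 10.2%. Of 12 FGF ligands 6 passed the minimum level, and their median log2 fold change was -0.05. *Fgf8*, the main ligand of the ridge, stood at 10.6, 6.87 and 6.89 FPKM in WT and at 10.5, 7.31 and 9.10 FPKM in CKO (log2 fold change 0.16, SE 0.21, adjusted *p* = 0.890). Its replicate 1 was the highest of both groups, as in most feedback genes. *Fgf10*, the mesenchymal ligand that starts limb outgrowth, stood at 6.27, 5.07 and 6.07 FPKM in WT and at 6.45, 4.96 and 6.50 FPKM in CKO (0.04, SE 0.15, adjusted *p* = 0.971). *Fgf4*, a ridge ligand, lay under the minimum, between 0.1005 and 0.417 FPKM over the libraries, and was not tested.

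Of 10 receptors and co-receptors 7 were tested, 6 of them with lower means in CKO and a median log2 fold change of -0.13. *Fgfr1*, the main receptor of the distal mesenchyme, stood at 31.6, 29.2 and 30.01 FPKM in WT and at 34.8, 23.1 and 28.5 FPKM in CKO (log2 fold change -0.09, SE 0.16, adjusted *p* = 0.921). *Fgfr2*, whose splice forms serve ectoderm and mesenchyme, stood at 6.29, 5.999 and 5.78 FPKM in WT and at 5.21, 4.44 and 4.11 FPKM in CKO. All its CKO values lay below all its WT values, with a log2 fold change of -0.39 (SE 0.13, adjusted *p* = 0.480; 0.0927 with the block). The other lists were 25 genes of the RAS-ERK cascade (25 tested, median log2 fold change -0.07), 22 immediate-early genes (19 tested, -0.01), 10 other MAP kinase phosphatases (10 tested, 0.0099) and 12 paralogs of the members (11 tested, 0.03). In each of these 4 lists the genes above 0 and the genes below 0 were both numerous, at 10 and 15, 9 and 10, 5 and 5, and 6 and 5. The members and these lists were not tested against each other.

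**Figure D5:**
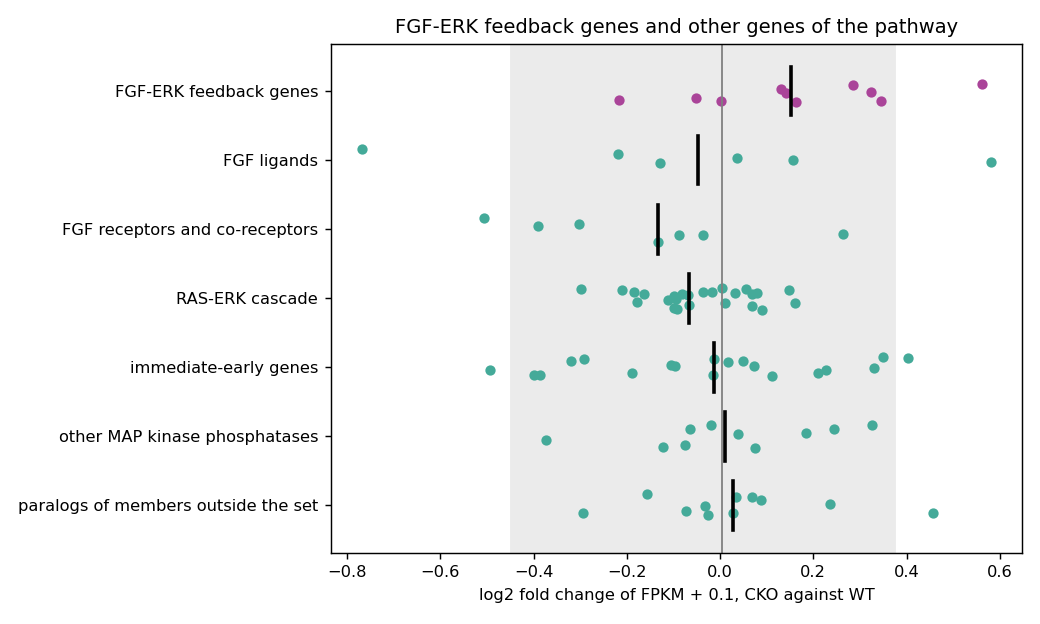
Log2 fold change between CKO and WT (horizontal axis) of each tested gene of the FGF-ERK feedback genes and of 6 other lists of the pathway, with black bars at the medians. The grey band spans the central 90% of all genes tested, from -0.45 to 0.38, the grey line marks their median, and *Spry4* is the only feedback gene outside the band.

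The summed markers of other cell types were set beside these values. The 8 limb mesenchyme markers summed to 317 to 331 FPKM in WT and to 273 to 300 FPKM in CKO. The 12 ectoderm and ridge markers summed to 55.5 to 88.8 FPKM in WT and to 61.4 to 93.9 FPKM in CKO, and the 9 red cell markers to 37788 to 63997 and to 30832 to 142935 FPKM. The myogenic markers summed to 18.5 to 32.9 FPKM in WT and 31.0 to 39.1 FPKM in CKO, the endothelial ones to 23.7 to 33.7 and 16.5 to 26.5, the Schwann precursor and neural crest ones to 3.27 to 8.38 and 6.69 to 8.79, and the macrophage ones to 15.6 to 23.9 and 17.0 to 29.9. Of the markers tested, those higher on average in CKO were 1 of 8 mesenchymal (median log2 fold change -0.17), 11 of 12 ectodermal (0.21), 9 of 9 red cell (0.43), 6 of 6 myogenic (0.48), 0 of 7 endothelial (-0.32), 3 of 3 Schwann (0.33) and 5 of 6 macrophage genes (0.22). No marker passed the adjusted threshold with limma, without or with the block. At an unadjusted *p* value under 0.05 without it, 2 were higher and 2 lower, against 2.84% and 5.46% of all genes. With the block, 1 ectodermal, 2 red cell, 4 myogenic, 1 Schwann and 1 macrophage marker were higher at that *p* value, against 8.14% of all genes. Lower were 1 mesenchymal and 3 endothelial markers, against 10.2%. The feedback genes are expressed in ectoderm as well as mesenchyme, and the part of cell composition in their differences was not tested. When FPKM were scaled to the same sum without the globin genes, the median of all genes moved to -0.10 and that of the members to 0.05, with 7 of 10 members above the median of all genes, as in the values as deposited.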

How the data were processed

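The authors made stranded mRNA libraries from the total RNA of limb buds at E11.5, with 3 biological replicates per group. The authors deposited 1 table of FPKM for 22040 genes. The submitters' processing notes name cutadapt 2.5, HISAT2 2.1.0, featureCounts 1.6.3 and the mm10 build without saying which served the RNA-seq, and the counting of strand is not given in the sources used here. FPKM times the merged exon length of GENCODE vM21 gave whole reads (tolerance 0.1 reads) in all 6 libraries for 92.6% of genes, from which the depths were recovered. *Spry4* gave whole reads with a length of 4587 bases, not with that annotation's 4755.

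The deposited FPKM were not rescaled. The 12305 genes that averaged at least 0.5 FPKM were tested on log2(FPKM + 0.1) with limma 3.58.1 in R 4.3.3 (eBayes with a trend). Benjamini-Hochberg adjustment of *p* covered all of these genes. The fold changes are on that scale, which understates those of low genes. Single genes were also compared by an exact permutation test over the 6 libraries. The limma *p* values set each difference against the variation among these libraries, moderated across genes. The same fit with the replicate number as a block was run because both groups carry the numbers 1 to 3. In it, that variation is what remains after the number is taken out. The deviations of same-numbered libraries from their group means correlated across genes at 0.64, 0.44 and 0.27 for numbers 1, 2 and 3. Libraries sharing a number were therefore treated as pairs, but these correlations cannot decide the pairing of numbers 2 and 3. The crossed pairs correlated slightly more, WT replicate 2 with CKO replicate 3 at 0.49 and WT replicate 3 with CKO replicate 2 at 0.31. A shared offset of replicate 1 also raises the values for numbers 2 and 3 by itself, because deviations within a group cancel out. The labels do not say what the numbers share.

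The genes named were all members, *Hnrnpk*, 5 ligands and receptors of the limb, any gene of the pathway lists past the adjusted threshold, and the 5 genes most like the members. Beyond that rule, some genes of the pathway and marker lists, such as *Jun*, *Spred3* and *Krt5*, were named after their values were seen. The members and lists were chosen with earlier results of these data known. The alternatives were other pseudocounts, filters, scalings and variance models, each library left out, and, added after seeing the data, limma voom on the recovered reads and further blocked fits. The limma fits were tested on simulated data. Those data carried replicate-number effects taken from these libraries, so that test cannot show whether the pairing holds. The table had 0 value columns without a sample, and the series' chromatin samples were not analysed here.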

Additional observations from a re-analysis of the deposited data

How the results depend on the processing

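None of the members passed the adjusted threshold in any fit without the replicate block. With it, 1 member (*Spry4*) passed with the values as deposited, by limma voom, and after median-ratio scaling or quantile normalization (log2 fold changes 0.56, 0.57, 0.57 and 0.57), 0 passed with scaling without globin genes or without replicate 2 or 3 of both groups, and 3 (*Spry4*, *Dusp6* and *Etv5*, at 0.61, 0.45 and 0.34) passed without replicate 1 of both groups, where 9.72% of all genes were called higher and 8.81% lower. Members higher at an unadjusted *p* value under 0.05 numbered 0 with scaling without globin genes, 4 in the blocked fits with all libraries other than that scaling, 4 without replicate 1 and 3 without replicate 2 of both groups, and 0 to 4 with single libraries left out, against 1. Without replicate 1, 1 member (*Spry2*) was lower. Signs turned for *Spry2* (0.12 and 0.0079 in blocked fits without replicate 2 or 3, and -0.23 to 0.11 with single libraries left out), for *Spred2* (-0.0060 with quantile normalization and -0.10 with scaling without globin genes, each with or without the block, -0.051 without replicate 1 of both groups, and -0.21 to 0.16), for *Spry1* (-0.016 to 0.36) and for *Il17rd* (-0.085 to 0.38), and the cause was not tested. *Hnrnpk* passed by voom with the block (-0.51) and in blocked fits with quantile normalization (-0.63), scaling without globin genes (-0.61) or without replicate 1 of both groups (-0.45).

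In the pathway lists, calls were made in 3 blocked fits alone. By voom these were 1 ligand (*Fgf18*) and 2 receptors or co-receptors (*Fgfr2* and *Flrt2*) lower, with 1 immediate-early gene higher (*Egr1*) and 1 lower (*Srf*). With scaling without globin genes, 1 ligand (*Fgf18*), 1 co-receptor (*Flrt2*) and 1 immediate-early gene (*Srf*) were lower. Without replicate 1 of both groups, 1 ligand (*Fgf18*), 3 receptors or co-receptors (*Fgfr2*, *Fgfr3* and *Flrt2*), 1 cascade gene (*Rps6ka2*) and 6 immediate-early genes were lower, and *Flrt3* and *Atf3* were higher, 1 in each of their lists, beside the same shares of all genes. These genes, other than *Fgfr2*, were named after their values were seen.

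Over all genes, the adjusted calls higher and lower in CKO (7 and 1) were 13 higher with quantile normalization, 4 and 0 with scaling without globin genes, 0 lower with no filter, 139 and 207 with the block, 227 and 424 by voom with it, 153 and 197, 93 and 100, and 95 and 375 with the block and median-ratio, quantile or globin-free scaling, and 1196 and 1084, 55 and 34, and 109 and 99 with the block without replicate 1, 2 or 3 of both groups. With single libraries left out they were 1 to 10 and 0 to 13. Genes past a fold change of 2 or 0.5 at an unadjusted *p* value under 0.05 (52 and 30) numbered 30 and 8 with a pseudocount of 0.5, 12 and 3 with 1, 103 and 59 with no filter, 28 and 19 with a minimum mean of 1, and 46 to 113 and 24 to 81 with single libraries left out. They were 54 lower by voom with the block, 50 lower with the block and globin-free scaling, 82 and 102 with the block without replicate 1, and 79 higher without replicate 2. Depth limits *Etv1* most, and 3 libraries per group leave intervals that hold differences of over 1.5-fold for several members.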

Other observations

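The genes whose log2(FPKM + 0.1) over the 6 libraries were most like the mean of the members' standardized values were *Igf2bp1*, *Drosha*, *Rtf1*, *Pprc1* and *Cad*. *Igf2bp1*, an RNA-binding protein of embryonic tissues, stood at 38.5, 26.7 and 28.1 FPKM in WT and at 47.0, 28.8 and 34.9 FPKM in CKO. *Pprc1*, a coactivator of nuclear genes for mitochondria, stood at 18.1, 10.98 and 11.7 FPKM in WT and at 22.3, 12.4 and 15.5 FPKM in CKO. These genes were chosen for this likeness, and their values are a description.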
